A study of Homo sapiens with 12 samples.

Results

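The genes described are 10 regulators of the epithelial-mesenchymal transition (EMT): the inducers SNAI1, SNAI2, ZEB1, ZEB2, TWIST1 and TWIST2, and the epithelial regulators GRHL2, OVOL1, ESRP1 and ESRP2. They were taken by gene symbol from a table of 60623 genes, and each symbol matched 1 row. The table holds RNA-seq counts of the human lung adenocarcinoma line A549, from which 4 stable lines were made with lentivirus and hygromycin. The lines carried the empty vector pLV-EF1a-IRES-Hygro (V), HA-tagged wild-type AHR (WT), HA-AHR with S489A (SA) or HA-AHR with S489D (SD). AHR is the aryl hydrocarbon receptor, a transcription factor that small ligands switch on, and in the study SA removes the serine that PLK1 phosphorylates while SD mimics its phosphorylated form. Each line gave 3 libraries called biological replicates, so p-values measure the spread between these libraries and nothing further is said of separate cultures. There was 1 line per construct, which means that a construct and any other difference of its line cannot be told apart.

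During EMT epithelial cells loosen their junctions and take on features of migrating cells. SNAI, ZEB and TWIST proteins bind E-box sequences, and the SNAI and ZEB proteins repress junction genes such as CDH1 directly. GRHL2 and OVOL1 hold the epithelial state and repress ZEB1. The splicing factors ESRP1 and ESRP2 direct epithelial splicing, and micro-RNAs of the miR-200 family repress ZEB1 and ZEB2.

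Library totals ran from 7844045 to 11765576 expected counts, and a count of 0 allowed up to 3 counts, which is between 0.255 and 0.382 CPM (each count relative to its TMM-normalized library total). Reads carried no described molecular identifiers, so this limit is one of counting error alone. The transgene was visible in the RNA: AHR, summed with a gene that overlaps it, was between 65.7 and 74.4 CPM in V, 449 and 483 in WT, 370 and 409 in SA, and 291 and 305 in SD. The epithelial keratins KRT8 and KRT18 were at 3260 and 2730 CPM in V, so the epithelial label held, although KRT19 was below 1 CPM in every line and only 1 of 5 alveolar lineage markers (NAPSA) reached that level. Of the markers of other cell types, 1 of 5 for fibroblasts, 0 of 4 for endothelium and 2 of 5 for leukocytes reached 1 CPM, and DCN and CD3E had no count. In bulk RNA, fewer cells of a type and less RNA per cell cannot be told apart.

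The inducers were transcribed in every library, and the epithelial regulators were near 0 in every library. Per length, in CPM per kilobase of annotated exon averaged over the 12 libraries, the order was TWIST2 (7.98), TWIST1 (4.81), ZEB1 (3.26), SNAI1 (2.6), SNAI2 (1.16) and ZEB2 (0.0929). The epithelial regulators followed with ESRP2 at 0.0703, ESRP1 at 0.0357, OVOL1 at 0.0133 and GRHL2 at 0.00291 CPM per kilobase. The union of annotated exons of ZEB2 spans 26.2 kilobases, which lowers its value on this scale. The libraries of TWIST1 and ZEB1 overlapped in 0 of 4 lines on this scale, and so did those of SNAI2 and ZEB2. TWIST2 overlapped TWIST1 in 1 line and SNAI1 overlapped SNAI2 in 1 line. ZEB1 and SNAI1 overlapped in 3 lines, as did ZEB2 and ESRP2 and the ESRP pair, while ESRP1, OVOL1 and GRHL2 each overlapped the next in all 4.

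**Figure D1:**
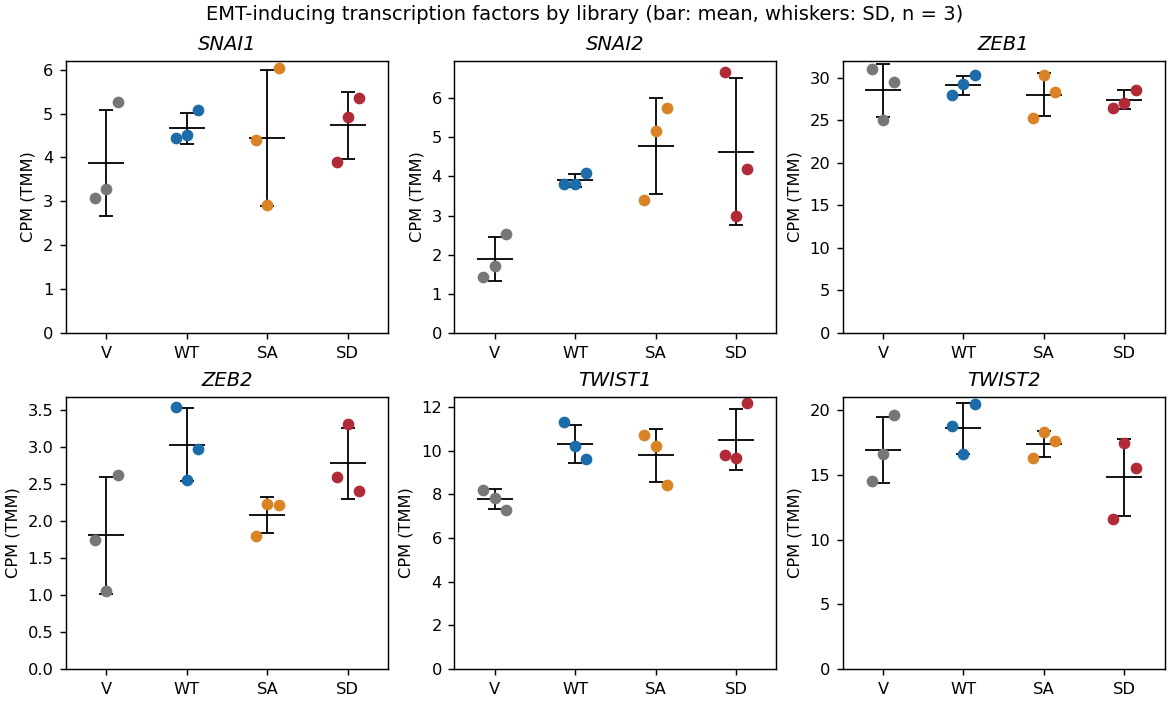
CPM of the 6 inducers in each of the 12 libraries (vertical axis, from 0) for the lines V, WT, SA and SD (horizontal axis), where points are libraries and the bar and whiskers are the mean and standard deviation of 3 libraries. All 9 AHR-line libraries of SNAI2 lie at 3.0 CPM or above, and the 3 V libraries lie at 2.53 CPM or below.

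SNAI2 (Slug, a zinc-finger repressor of CDH1) was the member that moved. The gene (ENSG00000019549) lies on the minus strand at chr8:48917598-48921740 of GRCh38. Its expected counts were 14, 16 and 24 in the V libraries, 30, 43 and 37 in WT, 34, 60 and 65 in SA, and 67, 28 and 47 in SD. In CPM these were 1.43, 1.7 and 2.53 in V, then 3.8, 3.8 and 4.09 in WT, 3.4, 5.15 and 5.76 in SA, and 6.68, 3.0 and 4.2 in SD. Every library of an AHR line was therefore above every V library, while the 3 AHR lines overlapped one another and the SD line spread most, with a standard deviation of 1.88 CPM. SNAI2 rose 2.52-fold in SA against V (log2 fold change 1.34 ± 0.31, standard error, edgeR adjusted p = 0.00687). It rose 2.45-fold in SD against V (1.30 ± 0.34, adjusted p = 0.0197). In WT against V the difference was 2.06-fold with an adjusted p of 0.0564 (1.04 ± 0.32), which missed the threshold of 0.05. These 3 comparisons share the V libraries, so they do not stand as independent repeats.

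The calls of SNAI2 rested on few counts and on single libraries. Without SA replicate 3 the adjusted p of SA against V was 0.057 (log2 fold change 1.18). For SD against V it was 0.101 without V replicate 1, 0.08 without V replicate 2 and 0.165 without SD replicate 1, the highest of the 12 libraries, when the log2 fold change was 0.94. For WT against V it was 0.0441 without V replicate 3 and 0.0354 when every gene with at least 1 count was tested. Between the AHR lines SNAI2 passed no test, with log2 differences of 0.25 (95% interval -0.32 to 0.82) for SD minus WT, -0.04 (-0.62 to 0.54) for SD minus SA and -0.29 (-0.82 to 0.23) for WT minus SA.

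Its paralog SNAI1 (Snail, ENSG00000124216, chr20:49982980-49988886, plus strand) was at 3.07, 3.29 and 5.27 CPM in V, 4.44, 4.51 and 5.08 in WT, 4.4, 2.92 and 6.03 in SA, and 3.89, 4.93 and 5.36 in SD. The libraries of all lines overlapped, and the spread was widest in SA. The log2 difference of WT from V was 0.27 ± 0.26 (adjusted p = 0.672), of SA 0.19 ± 0.29 (0.776) and of SD 0.29 ± 0.26 (0.636). The 95% interval in SD against V ran from -0.25 to 0.83, so a rise of the size fitted for SNAI2 in SD lay outside it.

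ZEB1 (ENSG00000148516, chr10:31318495-31529814, plus strand), a zinc-finger and homeodomain repressor of epithelial genes, was the most evenly expressed member. It was at 31.0, 25.0 and 29.5 CPM in V, 28.0, 29.2 and 30.3 in WT, 25.3, 30.3 and 28.3 in SA, and 26.4, 27.0 and 28.6 in SD. The lines overlapped throughout, and the log2 difference from V was 0.03 in WT (95% interval -0.17 to 0.23), -0.03 in SA (-0.24 to 0.17) and -0.06 in SD (-0.27 to 0.15). Between AHR lines they lay between -0.09 and 0.06. ZEB1-AS1, on the opposite strand, shares 396 exonic bases with ZEB1 and had 671 counts over the 12 libraries. Whether strand was used in counting is not given in the sources used here, so reads of the shared bases could come from either gene.

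ZEB2 (ENSG00000169554, chr2:144364364-144521057, minus strand), the paralog with the same repressor role, was at 1.74, 1.06 and 2.63 CPM in V, 3.55, 2.56 and 2.98 in WT, 1.8, 2.23 and 2.22 in SA, and 2.59, 3.32 and 2.41 in SD. All 3 WT and all 3 SD libraries were above all 3 SA libraries, as were those of 5.82% of genes in WT against SA and 6.52% in SD against SA, and the V libraries overlapped every other line. None of these differences passed the test. The log2 difference of WT from SA was 0.53 ± 0.33 (adjusted p = 0.758), of SD from SA 0.41 ± 0.32 (adjusted p = 0.767) and of WT from V 0.72 ± 0.36 (adjusted p = 0.301).

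TWIST1 (ENSG00000122691, chr7:19020991-19117636, minus strand), a basic helix-loop-helix factor that pairs with E proteins, was at 8.18, 7.85 and 7.27 CPM in V, 11.3, 10.2 and 9.61 in WT, 10.7, 10.2 and 8.42 in SA, and 9.78, 9.65 and 12.2 in SD. All 9 libraries of the AHR lines were above the 3 V libraries, as for SNAI2, but the fold changes were smaller. They were 1.33-fold in WT (log2 fold change 0.41 ± 0.17, adjusted p = 0.189), 1.25-fold in SA (0.32 ± 0.17, adjusted p = 0.306) and 1.36-fold in SD (0.44 ± 0.17, adjusted p = 0.14). No adjusted p passed, and in edgeR the unadjusted p were 0.0225, 0.0728 and 0.0145 in the same order, where 17.4%, 20% and 17.4% of all genes had one under 0.05. The difference between SD and WT was 0.03 on the log2 scale (95% interval -0.29 to 0.35).

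TWIST2 (ENSG00000233608, chr2:238848032-238910534, plus strand), the related factor known from dermis, had the highest level per length. It was at 14.5, 16.6 and 19.6 CPM in V, 18.8, 16.6 and 20.5 in WT, 16.3, 18.3 and 17.6 in SA, and 11.6, 17.5 and 15.5 in SD. The SD libraries held the lowest value of the 12, but they overlapped each other line. SD minus WT was -0.33 ± 0.14 on the log2 scale, with an edgeR unadjusted p of 0.0316 and an adjusted p of 0.403.

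**Figure D2:**
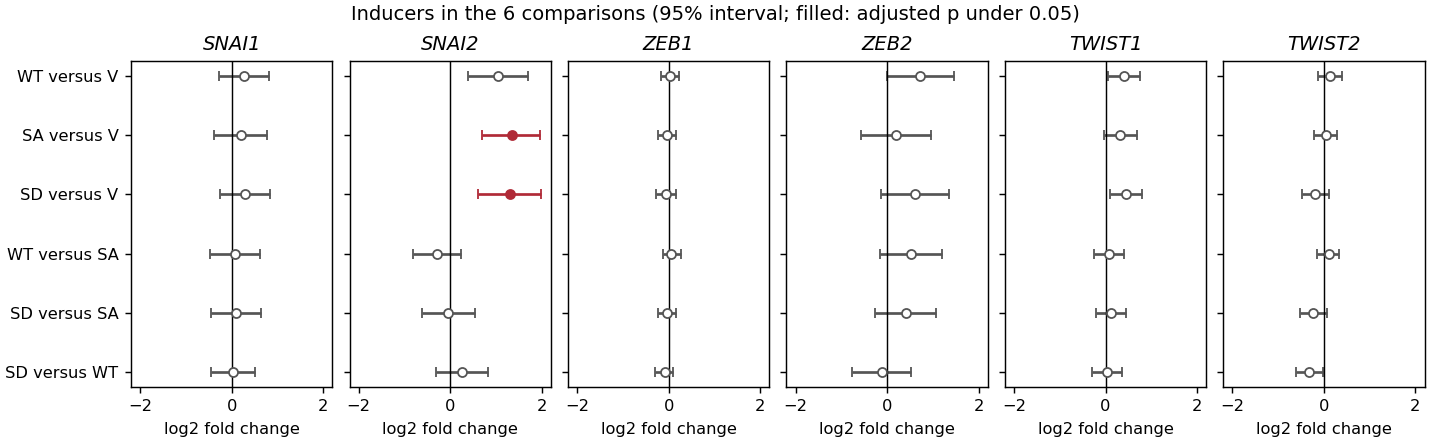
Log2 fold change of each inducer (horizontal axis) in the 6 comparisons between lines (vertical axis), with 95% intervals from the quasi-likelihood fit and filled points for an adjusted p under 0.05. The filled points are SNAI2 in SA against V (1.34) and in SD against V (1.30).

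Read against the whole table, the calls among the inducers were few. All 6 inducers passed the filter on low counts in each comparison. Between SD and WT 0 of 6 were called, where 0.708% of the 14828 genes tested were called, and 1 (TWIST2) had an unadjusted edgeR p under 0.05, as had 10.6% of all genes. Between SD and SA 0 of 6 were called against 0.22% of genes, and between WT and SA 0 of 6 against 0.0803%. In neither of these last 2 comparisons did an inducer have an unadjusted p under 0.05, as 8.52% and 7.31% of genes had. DESeq2 gave no adjusted p for any inducer in SD against WT or in WT against SA, so it could not call one there. In SD against SA it gave one for each inducer except ZEB2 and called 0 of them. Against V, 0 of 6 were called in WT (background 5.24%), 1 of 6 in SA (7.17%, or 3.88% in the direction higher in SA) and 1 of 6 in SD (5.41%, or 2.92% higher in SD). Inducers whose 3 libraries all lay above the 3 V libraries numbered 2 in each AHR line, SNAI2 and TWIST1, where the share of all genes that did so was 11.2% for WT, 12.8% for SA and 11% for SD. The median log2 fold change of the 6 inducers in WT against V was 0.34, in SA 0.20 and in SD 0.37, beside medians of 0.0018, -0.00242 and 0.00301 for all genes tested.

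The libraries also differed in epithelial RNA, with the lower levels in the AHR lines, where SNAI2 was higher. The summed level of 6 epithelial markers was between 7630 and 8010 CPM in V, 6460 and 6500 in WT, 6210 and 6400 in SA, and 5740 and 6090 in SD, with KRT8, KRT18 and CDH1 all lower in each AHR line than in V. KRT7 in SD (1360 to 1440 CPM) lay below V (1570 to 1710), but its WT and SA libraries overlapped those of V. The part of the epithelial markers in the SNAI2 result was not tested. The fibroblast marker sum moved the other way from SNAI2, from 10.3 to 13.4 CPM in V to 7.13 to 8.69 in SA, and was nearly all COL1A1. The summed level of 5 leukocyte markers moved with SNAI2, from between 33.1 and 40.9 CPM in V to between 42.8 and 46.2 in WT, 47.2 and 49.8 in SA, and 47.6 and 53.9 in SD, with no overlap of V and an AHR line. This sum was CD14 and CD68, while the defining leukocyte markers were at or near 0, CD3E with no count and PTPRC with 2 counts in 1 library.

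Across the 12 libraries the genes most like SNAI2 in log2(CPM + 1) were BACE2 (Pearson r 0.94), a protease related to the Alzheimer secretase BACE1, INSYN2A (0.94) and CDCP1 (0.92), a transmembrane substrate of SRC kinases, out of 15452 genes compared. Mean CPM of BACE2 in V, WT, SA and SD was 33.1, 39.3, 42 and 39.7, of INSYN2A 3.49, 4.55, 5.44 and 4.85, and of CDCP1 90.3, 112, 115 and 113. All 3 shared the order of the SNAI2 means in V and SA, the lowest and the highest. The libraries share their line, so these correlations describe likeness and were not tested.

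The 4 epithelial regulators did not reach the filter in any comparison and were therefore not tested. GRHL2 (ENSG00000083307, chr8:101492439-101669726, plus strand), a grainyhead factor that activates junction genes, had 1 count in each of V replicates 2 and 3 and 0 in the other 10 libraries. OVOL1 (ENSG00000172818, chr11:65787063-65797214, plus strand), a zinc-finger repressor of ZEB1, had 0 counts in the V libraries, 0, 1 and 2 in WT, 1, 0 and 0 in SA, and 0, 1 and 1 in SD. No library held more than 3 counts of either gene, so both lay at or under the limit that a count of 0 allows and no fold is given.

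ESRP1 (ENSG00000104413, chr8:94641074-94707466, plus strand), an epithelial splicing regulator, had 2, 0 and 3 counts in V, 0, 3 and 0 in WT, 4, 5 and 1 in SA, and 1, 1 and 2 in SD. Its paralog ESRP2 (ENSG00000103067, chr16:68229033-68238102, minus strand) had the most of the 4, with 8, 5 and 3 counts in V, 3, 5 and 4 in WT, 5, 2 and 1 in SA, and 6, 0 and 1 in SD. Both overlapped between all lines. ESRP2 shares 227 exonic bases with NFATC3 on the opposite strand (5527 counts over the 12 libraries) and 113 with ENSG00000262160 on its own strand (2106 counts), so some of its few reads could belong to those genes. When every gene with at least 1 count was tested, the smallest adjusted p of the 4 genes in any comparison was 0.63, for OVOL1 in WT against V. No difference of an epithelial regulator between lines was detected at these counts.

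**Figure D3:**
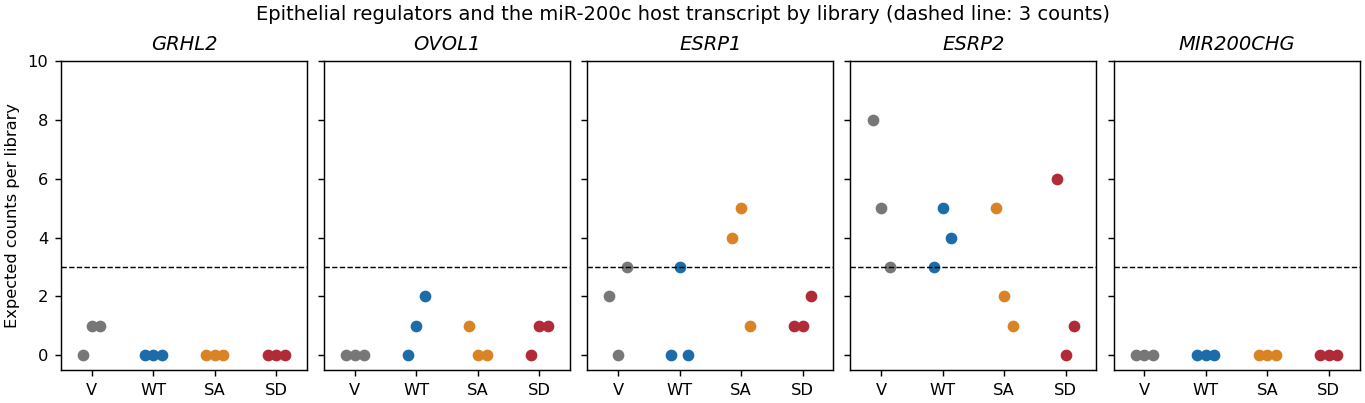
Expected counts (vertical axis) of GRHL2, OVOL1, ESRP1, ESRP2 and MIR200CHG in each library of V, WT, SA and SD (horizontal axis), with a dashed line at 3 counts. GRHL2 has 1 count in 2 V libraries and 0 elsewhere, ESRP2 reaches 8 counts in V, and MIR200CHG has 0 in all 12 libraries.

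The related epithelial factors were mixed. Of 24 other EMT and epithelial transcription factors, 9 averaged under 1 CPM over the 12 libraries, among them OVOL2, and TBXT and ELF5 had no count. GRHL3, a paralog of GRHL2 that promotes epidermal barrier genes, was the grainyhead gene that moved. It was at 3.79, 4.45 and 4.43 CPM in V, 2.15, 2.03 and 1.32 in WT, 2.6, 2.06 and 2.57 in SA, and 1.5, 2.04 and 1.7 in SD. All 9 AHR-line libraries lay below the 3 V libraries. GRHL3 fell by 1.20 on the log2 scale in WT (adjusted p = 0.0209) and by 1.27 in SD (adjusted p = 0.0135). These calls were lost when single libraries were left out, V replicates 1, 2 and 3 or WT replicate 3 for WT (adjusted p up to 0.11) and V replicates 2 and 3 for SD (up to 0.0647).

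ELF3, an epithelial ETS factor, fell by 0.33 in WT and by 0.37 in SD on the log2 scale (adjusted p = 2.32e-04 and 1.51e-04). KLF5, a factor of proliferating epithelium, fell by 0.51 in SA (adjusted p = 1.26e-04) and by 0.34 in SD (adjusted p = 0.0214), the latter call being lost without V replicate 1, V replicate 3 or SD replicate 1. FOXC2, a mesenchymal forkhead factor, rose by 1.51 in SA from 0.731 CPM in V (adjusted p = 0.0367), and the call was lost without any 1 of 5 libraries (adjusted p up to 0.246): each V library, SA replicate 2 or SA replicate 3. In all, 0 of the tested factors were called higher and 2 lower in WT (14 tested), 1 higher and 1 lower in SA (15 tested), and 0 higher and 3 lower in SD (15 tested). The shares of all genes called higher were 2.31% in WT, 3.88% in SA and 2.92% in SD, and called lower 2.93%, 3.29% and 2.49%. None of the factors was called between AHR lines in edgeR.

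The partners of the inducers were all transcribed. All 23 partners, corepressors and modifiers averaged 1 CPM or more. LOXL2, a lysyl oxidase-like enzyme that binds and stabilizes SNAI1, rose in each AHR line against V by 0.44 ± 0.04 in WT, 0.48 ± 0.05 in SA and 0.47 ± 0.06 in SD on the log2 scale (adjusted p = 4.30e-08, 7.67e-07 and 3.33e-06). Its 3 V libraries lay between 279 and 282 CPM and its AHR-line libraries between 366 and 432. ID2, an inhibitor of basic helix-loop-helix factors, rose by 0.36 in WT and 0.37 in SA (adjusted p = 0.0202 and 0.0123), and ID1 by 0.17 in SA (adjusted p = 0.0302). The ID calls were each lost when at least 1 library was left out (adjusted p up to 0.11 for WT, 0.076 and 0.186 for SA). ID2 in SA lost its call without V replicate 2. In WT it was lost without V replicate 1, V replicate 2, WT replicate 1 or WT replicate 3 and with DESeq2 (adjusted p = 0.0556), and ID1 in SA without V replicates 1 or 2 or SA replicates 2 or 3. In SD, LOXL2 was the sole call of the 23. Called higher were thus 2 of 23 in WT, 3 in SA and 1 in SD, beside 2.31%, 3.88% and 2.92% of all genes. None of the 23 was called between AHR lines in edgeR.

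Of 32 epithelial target genes, 22 or 23 were tested against V and 3 were called lower and 0 higher in each AHR line, where 2.93% of all genes were called lower in WT, 3.29% in SA and 2.49% in SD. CDH1 (E-cadherin, the adherens junction cadherin) and JUP (plakoglobin, which links junctions to the cytoskeleton) were called in all 3. CDH1 was at 179, 169 and 161 CPM in V, 116, 113 and 107 in WT, 118, 116 and 103 in SA, and 130, 132 and 117 in SD. Each AHR-line library was below each V library, and on the log2 scale CDH1 fell by 0.60 in WT, 0.60 in SA and 0.43 in SD (adjusted p = 7.74e-09, 1.18e-07 and 3.84e-05). JUP fell by 0.72, 0.58 and 0.64 in the same order, from 158 CPM in V (standard deviation 3.88, n = 3) to 95.9 ± 8.29, 106 ± 8.23 and 101 ± 9.08. The other call was a different gene in each line: LLGL2, a cell polarity gene, fell by 0.23 in WT (adjusted p = 0.00874), PATJ, a tight junction scaffold, fell by 0.30 in SA (0.0178), and the desmosome gene DSP fell by 0.23 in SD (0.018). Each of these 3 lost its call without some library (LLGL2 without V replicate 1 or WT replicate 3, PATJ without V replicate 3 or SA replicate 2, DSP without V replicate 1, V replicate 3, SD replicate 2 or SD replicate 3), with adjusted p up to 0.0777, 0.0993 and 0.121. None of the epithelial targets was called between AHR lines in edgeR. Of the 22 tested between SD and WT, 3 higher and 3 lower in SD had an unadjusted edgeR p under 0.05. Of all genes, 10.6% had one, counting both directions.

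Of 24 mesenchymal target genes, 18 were tested, and 4 were called higher and 1 lower in WT, 5 and 2 in SA, and 6 and 1 in SD. Of all genes, 2.31%, 3.88% and 2.92% were called higher and 2.93%, 3.29% and 2.49% lower in the same order. VIM (vimentin, the mesenchymal intermediate filament) was at 1030 ± 34.8 CPM (standard deviation) in V and rose by 0.36 in WT, 0.35 in SA and 0.26 in SD (adjusted p = 3.70e-07, 6.69e-06 and 0.00256). The matrix protein TNC rose by 1.07, 0.89 and 1.05, and the integrin subunit ITGB3 by 0.74, 0.85 and 1.15. MMP2, a gelatinase, was at 7.47, 6.57 and 8.43 CPM in V, 18.4, 15.1 and 17.2 in WT, 17.7, 14.3 and 15.8 in SA, and 25.2, 23.6 and 24.8 in SD. Its libraries formed 3 levels, with V lowest, WT and SA overlapping, and SD highest.

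Not every mesenchymal gene moved that way. COL1A1, the main fibrillar collagen chain, fell by 0.79 in WT and by 0.60 in SA (adjusted p = 0.00649 and 0.0278), and the versican gene VCAN fell by 1.22 in SA (0.045). COL1A1 in WT was lost without V replicate 1 (adjusted p = 0.0728), and COL1A1 and VCAN in SA were lost without several libraries (up to 0.181 and 0.237). VCAN in SA was also lost with DESeq2 (0.0717) and with all 12 libraries fitted together (0.0627). SPARC, a matrix glycoprotein, rose by 1.69 in SD (0.00536), a call lost without V replicate 1 (0.0519). Of these lists, the mesenchymal targets alone held calls between AHR lines: 3 of 18 in SD against WT and 2 of 18 in SD against SA, all higher in SD (background in that direction 0.513% and 0.16%), and 0 in WT against SA. In SD against WT these were COL5A1, a fibrillar collagen chain (log2 difference 0.51, adjusted p = 9.21e-05), MMP2 (0.54, 0.0215) and VCAN (1.62, 0.0265), and in SD against SA they were MMP2 (0.63, 0.0154) and VCAN (1.95, 0.0161). COL5A1 kept its call with any library left out, and MMP2 and VCAN lost theirs without 2 to 4 of the 6 libraries (adjusted p up to 0.163). The lists were chosen with earlier results of these data known, so these shares are a description and were not tested against the background.

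**Figure D4:**
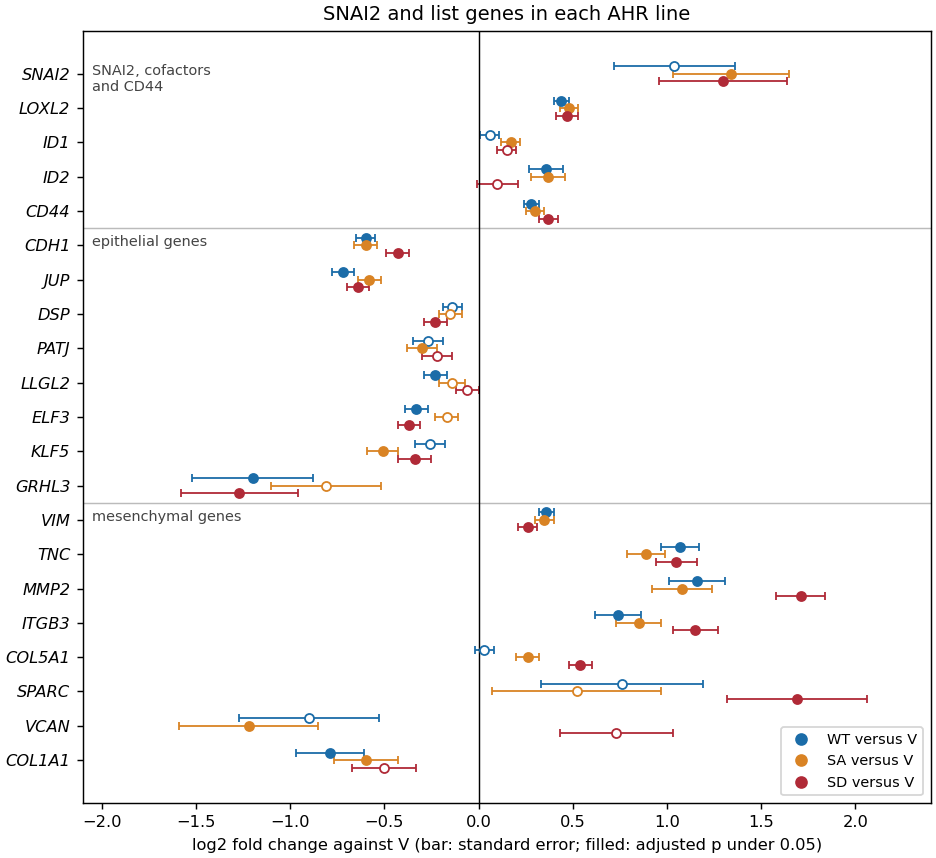
Log2 fold change against V (horizontal axis, with standard errors) in WT, SA and SD for SNAI2 and 20 genes of the lists (vertical axis), filled where the adjusted p was under 0.05. CDH1 and JUP lie left of 0 and LOXL2, CD44, VIM, TNC, MMP2 and ITGB3 right of 0 with filled points in all 3 lines, and the SD points of MMP2 (1.71) and VCAN (0.73) lie right of those of WT and SA.

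Transcripts that ESRP proteins splice were measured only as gene totals, which do not show isoforms. Of 12 such genes 10 or 11 were tested, and CD44, the hyaluronan receptor whose variable exons ESRP1 promotes, rose by 0.28 in WT, 0.30 in SA and 0.37 in SD (adjusted p = 2.95e-05, 6.90e-05 and 2.27e-05). EXOC7, an exocyst subunit, rose by 0.17 in SA (0.046), a call lost without any V library, SA replicate 2 or SA replicate 3 (up to 0.183), with DESeq2 (0.0511) and with all 12 libraries fitted together (0.0561). Called higher were thus 1 of 10 in WT, 2 of 11 in SA and 1 of 11 in SD, beside 2.31%, 3.88% and 2.92% of all genes.

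The micro-RNAs that repress ZEB1 and ZEB2 are shown because they act on 2 of the members. Host transcripts were looked at only for miR-200c with miR-141 and for miR-205. No host of miR-200a, miR-200b and miR-429, which lie on chromosome 1, was among the listed genes. In RefSeq (GRCh38.p14) the miR-200 family falls into 2 seed groups that differ at 1 base, and capitals mark the seed, bases 2 to 8:
hsa-miR-141-3p: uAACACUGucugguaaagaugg
hsa-miR-200a-3p: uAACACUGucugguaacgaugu
hsa-miR-200b-3p: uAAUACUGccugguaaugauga
hsa-miR-200c-3p: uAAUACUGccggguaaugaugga
hsa-miR-429: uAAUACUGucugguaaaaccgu
hsa-miR-205-5p: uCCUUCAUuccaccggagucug
The micro-RNA miR-205, which represses ZEB1 and ZEB2 as well, has a seed of its own. Mature micro-RNAs are not in a library made from polyadenylated RNA. MIR200CHG, the host of miR-200c and miR-141 (chr12:6963246-6964447, plus strand), and MIR205HG had no count in any of the 12 libraries. Of the other 4 host transcripts, MIR34AHG fell by 0.59 in WT (adjusted p = 4.68e-04), and MIR22HG rose by 0.48 in SA (0.0308) and by 0.67 in SD (0.00242). The MIR22HG call in SA was lost without V replicate 1, V replicate 2, SA replicate 1 or SA replicate 2 (up to 0.147) and with DESeq2 (0.0665). Of the 4 hosts tested, 1 was called lower in WT, 1 higher in SA and 1 higher in SD. The shares of all genes called in those directions were 2.93%, 3.88% and 2.92%.

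The E-box CACCTG, to which SNAI and ZEB proteins bind, was looked for on both strands in the 250 bases before the RefSeq transcript starts (GRCh38.p14). It was present in 17.5% of 35116 such windows. Every CACCTG is also a CANNTG, the general E-box, which 61.8% of windows held, and GCGTG, the core bound by AHR, was in 32.2%. Windows were listed for 6 of the 8 epithelial genes called lower in an AHR line, and 5 of these genes (5 of 9 windows) held CACCTG, which is a description of genes chosen by their values and was not tested. The stretches around 5 of these matches are shown on the strand of the gene, because they are the letters that SNAI2 and the ZEB proteins recognise, with the E-box in capitals (CAGGTG is CACCTG read on the other strand):
GRHL3: ttaacagctgCACCTGttgaggtata
ELF3: atatgcaaatCACCTGgggccaggag
JUP: actctggcccCACCTGccgagcaggt
PATJ: ggtaggaattCACCTGcacgtaaaca
DSP: agaaaccggcCAGGTGtggcctaggc
They lie at chr1:24319326-24319351 (plus strand) for GRHL3, chr1:202010457-202010482 (plus) for ELF3, chr17:41786015-41786040 (minus) for JUP, chr1:61742299-61742324 (plus) for PATJ and chr6:7541576-7541601 (plus) for DSP. The GRHL3 match begins 21 bases before the transcript start and the JUP match 54 bases before it. KLF5 had windows without the hexamer, and CDH1 and LLGL2 had no window in the table. The hexamer was not particular to the genes called lower. Among epithelial targets not called lower, windows of CLDN7, OCLN, TJP3, CRB3, SPINT1, RAB25, MYO5B, AP1M2, CDS1 and MUC1 also held it. Those of CLDN3, CLDN4, LSR and MARVELD2 did not, nor did those of the other EMT and epithelial factors apart from GRHL3 and ELF3.

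Among the members, windows were listed for ZEB1 (7), ZEB2 (1) and TWIST2 (1). Of the ZEB1 windows 2 held CACCTG and 2 held GCGTG, and the ZEB2 window held GCGTG and an E-box of the general kind but no CACCTG. The TWIST2 window held none of the 3 motifs. One ZEB1 match, at chr10:31319121-31319146 on the plus strand, is shown for comparison with the epithelial genes, since ZEB1 did not move in any comparison:
ZEB1: tgtcgtaaacCAGGTGcggtggggag
A match describes letters only, and binding was not measured in these data. SNAI1, SNAI2, TWIST1, GRHL2, OVOL1, ESRP1 and ESRP2 had no entry.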

How the data were processed

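RNA-seq of polyadenylated RNA from 12 libraries (4 lines, 3 per line) was analysed. The authors trimmed the reads with Trimmomatic 0.39, quantified them with RSEM on GRCh38 and deposited 1 expected count per gene and library, not normalized. Reads shared by genes are split between them by RSEM, and 3.24% to 3.61% of values per library were not whole. The deposited table of ordered genes holds the authors' own fold changes and p-values and was not used.

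Expected counts were rounded and tested in R 4.3.3 with edgeR 4.0.16: filterByExpr (minimum count 10, minimum total 15), TMM (factors 0.989 to 1.01) and the two-sided quasi-likelihood test on the 6 libraries of each pair of lines, with Benjamini-Hochberg adjustment over all genes tested and calls at an adjusted p under 0.05. Standard errors were derived from the F statistics. The authors name edgeR without naming the test or filter. No 2 libraries of a line were copies of each other.

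Members and gene lists were chosen with earlier results of these data known. Named are all members, AHR, up to 4 called genes per list and comparison by absolute log2 fold change, and the 3 genes most like a called member. VIM and genes named for having few or no counts, as markers or for sharing exons with a member were named after their values were seen. On simulated counts for SD against V (14865 genes), 187 of 197 changed genes were recovered with 5 false calls. The simulation gave all genes a common dispersion, drew changed genes from all but the lowest counts and used larger folds than those of TWIST1. This recovery is therefore not the power to detect changes of the inducers. Some genes of the lists are not reported here. Alternatives were DESeq2 1.42.0, its size factors, 2 other filters, a joint fit of all 12 libraries, a block for replicate number and each library left out.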

Additional observations from a re-analysis of the deposited data

Results flagged for a closer look

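Among the genes tested with the regulators, 3 mesenchymal targets had effects against V that differed between AHR lines, by the direct test of one AHR line against another (edgeR quasi-likelihood test, adjusted over all genes tested). The effect of COL5A1 was higher in SD than in WT by 0.51 on the log2 scale (adjusted p = 9.21e-05), and all 3 SD libraries (251, 265 and 284 CPM) lay above the 3 WT libraries (177, 179 and 207). The effect of MMP2 was higher in SD than in WT by 0.54 (adjusted p = 0.0215) and than in SA by 0.63 (0.0154). The effect of VCAN was higher in SD than in WT by 1.62 (0.0265) and than in SA by 1.95 (0.0161), with libraries of 6.68, 5.9 and 3.13 CPM in SD, 1.77, 2.3 and 0.883 in WT, and 1.9, 1.29 and 0.887 in SA. In V they were at 2.76, 4.24 and 2.42 CPM, overlapping SD and above all of WT and SA, and VCAN was not called in SD against V. Leaving out some single libraries lost the calls of VCAN (edgeR adjusted p up to 0.139 against WT and 0.131 against SA). The same held for MMP2 (up to 0.122 and 0.163). No member was among the 3 genes.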

How the results depend on the processing

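With SNAI2 the sole inducer to cross the threshold, the number of members called moved between 0 and 1. In WT against V it was 1 in place of 0 when every gene with at least 1 count was tested, with at least 10 counts in every library (SNAI2 adjusted p = 0.0207), and without V replicate 3, and leaving out 1 library gave 0 to 1. In SA against V and in SD against V leaving out 1 library also gave 0 to 1: it was 0 without SA replicate 3 in the former, and 0 without V replicate 1, V replicate 2 or SD replicate 1 in the latter. In the comparisons between AHR lines it was 0 under each alternative run. No member or named list gene that was called changed its direction under any alternative, and the cause of the lost calls was not tested beyond the fewer libraries or the other set of genes. With DESeq2 the calls of ID2 in WT against V (adjusted p = 0.0556) and of VCAN (0.0717), EXOC7 (0.0511) and MIR22HG (0.0665) in SA against V were lost, and with all 12 libraries fitted together those of VCAN (0.0627) and EXOC7 (0.0561) in SA against V. DESeq2 gave no adjusted p for some named genes (8 in SD against WT, 2 in SD against SA, 6 in WT against SA and 1 in SA against V).

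Same-numbered libraries of different lines correlated at -0.06 to 0.10 in their deviations from the line means, and 0 of 18 pairs exceeded 0.1. Between AHR lines, though, same-numbered pairs lay at 0.03 to 0.10 and other pairs at -0.09 to 0.02, without overlap. Against V the same-numbered pairs (-0.06 to 0.09) and the others (-0.11 to 0.08) overlapped. Whether the numbers mark libraries handled together was not tested. With the replicate number as a block, members called stayed at 0 in SD against WT, SD against SA, WT against SA and WT against V and at 1 in SA against V and SD against V (SNAI2 adjusted p 0.0964 in WT, 0.00252 in SA and 0.0439 in SD), while all genes called went from 105 to 245, 33 to 165, 12 to 25, 774 to 507, 1069 to 1345 and 806 to 664 in the same order. GRHL3 in WT against V lost its call (adjusted p = 0.0547). The number of all genes called between AHR lines also rose when every gene with at least 1 count was tested, to 252, 153 and 103. Counts were too few to test the epithelial regulators under the filter, and SNAI2 in V had 14 to 24 counts.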
